A study of Homo sapiens with 15 samples.

Results

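The miR-148 and miR-152 family comprises 3 hairpins, miR-148a, miR-148b and miR-152, each of which yields a mature miRNA from its 3′ arm and another from its 5′ arm. All 6 mature arms were followed: hsa-miR-148a-3p, hsa-miR-148a-5p, hsa-miR-148b-3p, hsa-miR-148b-5p, hsa-miR-152-3p and hsa-miR-152-5p. They were taken by name from 2424 miRNAs listed in the deposited count tables, 2418 in the FTO knockdown table and 2189 in the immunoprecipitation table, and every arm was listed in both. The family was selected by its high abundance in these cells together with its strong depletion from the m6A immunoprecipitate relative to input. Levels in the untreated samples and the m6A to input ratios are therefore given as a description, with no test.

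The study sequenced small RNA from 15 samples of 3 clonal HEK293 derivatives, FTO1C1, FTO2D4 and FTO3C3, each of which is a single clone of a human embryonic kidney line that carries an inducible FTO transgene, left uninduced. FTO is a demethylase that removes the methyl group of N6-methyladenosine (m6A) from RNA. In 6 samples the clones were transfected with 10 nM scrambled siRNA or 10 nM FTO-specific siRNA and harvested after 48 h. In the other 9 samples the untreated clones gave input small RNA, RNA precipitated with an anti-me6A antibody (Synaptic Systems) and RNA precipitated with an IgG isotype antibody (Cell Signaling Technology) as the background control. Each of the 5 groups thus held 1 sample from each of the 3 clones.

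A miRNA recognises its target transcripts mainly through its seed, the short stretch near its 5′ end, and the 3p arms of this family share a seed and so largely share targets. Known targets of the 3p arms include the transcripts of DNMT1, the maintenance DNA methyltransferase, of the LDL receptor and of the cholesterol exporter ABCA1. Usually one arm of a hairpin is loaded into Argonaute and kept while the opposite arm is mostly degraded, and in this family the 3p arm is usually named as the guide strand and the 5p arm as the passenger.

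The mature sequences show how little separates the 3p arms that the counts had to tell apart. They are given 5′ to 3′ from RefSeq (GRCh38.p14), with the seed, bases 2 to 8, in capitals. RefSeq supplied 5 of the 6 members, and hsa-miR-148a-5p is only named.
hsa-miR-148a-3p: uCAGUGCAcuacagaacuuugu
hsa-miR-148b-3p: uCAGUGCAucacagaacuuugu
hsa-miR-152-3p: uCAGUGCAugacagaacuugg
hsa-miR-148b-5p: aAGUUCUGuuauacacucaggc
hsa-miR-152-5p: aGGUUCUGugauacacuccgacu

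Among 2370 mature names in the RefSeq table, the seed CAGUGCA was held by 3, the 3p arms of this family and no other miRNA. The seed of miR-148b-5p was also that of hsa-miR-6874-3p, and the seed of miR-152-5p was found in no other name. Counted from 1 at the 5′ end, miR-148a-3p differed from miR-148b-3p by C9U and U10C, so these arms of 22 bases were told apart by 2 adjacent bases just behind the seed. From miR-148a-3p to miR-152-3p, which was 1 base shorter, the changes were C9U, U10G and U20G. From miR-148b-3p to miR-152-3p they were C10G and U20G, and between the 5p arms, from miR-148b-5p to miR-152-5p, they were A2G, U10G, A19C and G21A. The string GAACU, one form of the consensus around methylated adenosines, began at base 14 in all 3 of the 3p arms and was absent on the given strand from both 5p arms in the table. It occurred in 42 of the 2370 names, or 1.77%, while 491 names, or 20.7%, held at least 1 of the 12 strings of 5 bases that were searched as forms of the consensus, so holding a form of it was common. Its presence is a description of the letters only.

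The hairpins, with the mature arms in the RefSeq table in capitals, show both arms on either side of a loop for MIR148B and MIR152. For MIR148A only the 3p arm is in capitals, since miR-148a-5p was not matched.
MIR148A: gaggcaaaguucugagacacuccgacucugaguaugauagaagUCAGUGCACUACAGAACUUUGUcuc
MIR148B: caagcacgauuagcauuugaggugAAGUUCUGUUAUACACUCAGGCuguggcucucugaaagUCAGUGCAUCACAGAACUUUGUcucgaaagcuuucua
MIR152: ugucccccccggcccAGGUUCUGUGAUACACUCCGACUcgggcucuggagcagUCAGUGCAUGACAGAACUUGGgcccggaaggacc

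MIR148A lies at chr7:25949919-25949986 on the minus strand within the long non-coding RNA gene LOC105375199, and the nearest protein-coding gene, NFE2L3, is 202212 bp away. MIR148B lies at chr12:54337216-54337314 on the plus strand within COPZ1, and MIR152 at chr17:48037161-48037247 on the minus strand within COPZ2. COPZ1 and COPZ2 encode paralogous subunits of the coatomer, the coat of vesicles that move between the Golgi and the endoplasmic reticulum. MIR148B and MIR152 thus sit in related host genes, whereas MIR148A does not.

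Reads assigned to miRNAs ranged from 1991317 to 3876806 per sample in the knockdown table and from 186446 to 4973238 in the immunoprecipitation table. The smallest library was the IgG sample of FTO3C3. Levels are reads per 1000000 miRNA reads (RPM), so a lower value cannot be told apart from a rise of other miRNAs, nor fewer cells from less RNA per cell. A single miRNA, miR-6080, took 15.5% to 28.4% of the reads in input, 41.3% to 47.8% in m6A and 58.0% to 71.6% in IgG, against 2.05% to 4.18% in the knockdown table. Among 10 miRNAs typical of liver, blood, endothelium, muscle or neurons, 8 were listed in the immunoprecipitation table. Their summed level was 535 to 1002 RPM in input, 888.5 to 2126 RPM in m6A and 154 to 236 RPM in IgG. In the knockdown table all 10 were listed, summing to 203 to 321 RPM with scrambled siRNA and 256 to 375 RPM with FTO siRNA. The part of these shares in the results was not tested. FTO mRNA is not measured by these tables, so the knockdown itself was not checked here.

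In the cells, the family was dominated by miR-148a-3p, the guide strand of the miR-148a hairpin. In scrambled siRNA samples miR-148a-3p reached 40052, 47468 and 40641 RPM in FTO1C1, FTO2D4 and FTO3C3, and in input 27878, 39302 and 21704 RPM. It ranked 4th, 3rd and 5th among all miRNAs in the former and 5th, 5th and 6th in the latter. miR-148b-3p stood an order of magnitude lower, at 3945, 3581 and 3999.9 RPM with scrambled siRNA and 2176, 3202 and 2336 RPM in input. The third 3p arm, miR-152-3p, was scarce, with 61.8, 75.5 and 56.7 RPM with scrambled siRNA and 35.5, 65.1 and 35.3 RPM in input, the latter from only 50, 95 and 53 reads. With the same seed in all 3 arms, the pool of miRNAs with the CAGUGCA seed was therefore almost wholly miR-148a-3p and miR-148b-3p.

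The 5p arms were within a narrower range, and in input the 5p arm of miR-152 was the more abundant of the pair. In input miR-148a-5p was at 197, 240.5 and 269 RPM, miR-148b-5p at 287, 341 and 296 RPM, and miR-152-5p at 141, 127 and 187 RPM. In scrambled siRNA samples miR-148a-5p was at 379, 362 and 409 RPM, miR-148b-5p at 273, 285 and 284 RPM, and miR-152-5p at 76.4, 58.9 and 82.9 RPM. Ordered by mean level in input, miR-148a-3p (29628 ± 8929 RPM, SD, n = 3 here and below) was followed by miR-148b-3p (2572 ± 552), miR-148b-5p (308 ± 28.9), miR-148a-5p (235 ± 36.3), miR-152-5p (151 ± 31.4) and miR-152-3p (45.3 ± 17.1), with no overlap between neighbours. In scrambled siRNA samples the same 6 arms stood at 42720.4 ± 4122, 3842 ± 228, 280.3 ± 6.62, 383 ± 23.6, 72.7 ± 12.4 and 64.7 ± 9.69 RPM in that sequence, so the 5p arms of miR-148a and miR-148b changed places and the miR-152 arms overlapped. In input miR-152-5p outnumbered miR-152-3p 3.96-, 1.95- and 5.28-fold, so the names guide and passenger go against the input counts for this hairpin. The tables come from separate experiments, and levels across them were not tested.

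**Figure D1:**
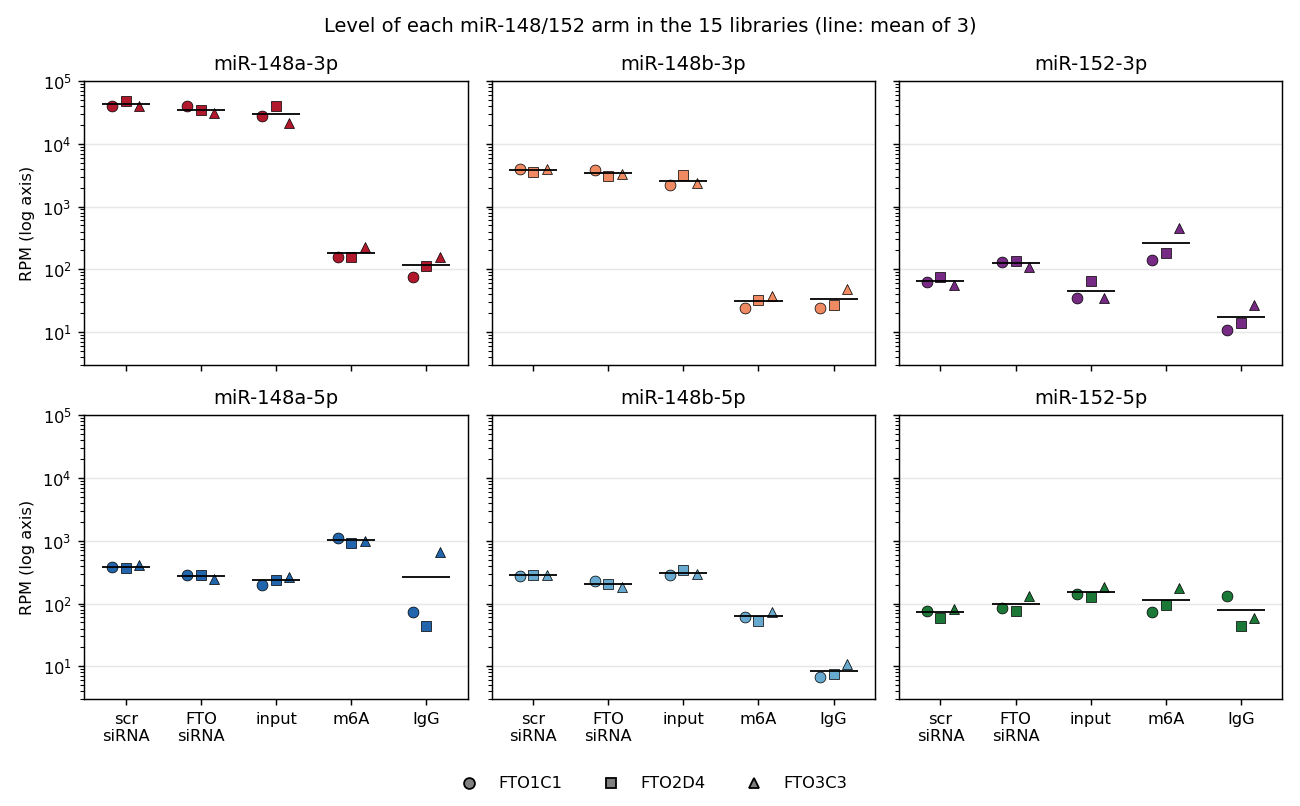
Level of each of the 6 arms in RPM (log axis) in the scrambled siRNA, FTO siRNA, input, m6A and IgG samples, 1 point for each clone and a line at the mean of 3. The means of miR-148a-3p are 29628 RPM in input, 181 RPM in m6A and 115 RPM in IgG, whereas those of miR-148a-5p are 235 RPM in input and 1019.6 RPM in m6A.

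In the precipitates the family was sharply reduced and its composition turned over. The 6 arms together held 3.07%, 4.33% and 2.48% of miRNA reads in input, 0.159%, 0.145% and 0.197% in m6A and 0.0324%, 0.0249% and 0.0971% in IgG. miR-148a-3p made up 90.8%, 90.8% and 87.4% of family reads in input and only 10.1%, 11.0% and 11.3% in m6A. Its place was taken by its own passenger strand, as miR-148a-5p supplied 71.0%, 64.3% and 50.8% of the family's m6A reads. miR-152-3p, the rarest arm in input, supplied a further 8.86%, 12.4% and 23.1%.

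The values on which the family was chosen were those of the 3p arms of miR-148a and miR-148b. In m6A samples miR-148a-3p was at 159.8, 160.0 and 223 RPM, from 91, 218 and 1109 reads, which is 174-, 246- and 97.3-fold below input in the same clone. Its fitted log2 ratio to input was -7.33 (SE 0.57), the third lowest of 2174 miRNAs, and its rank in m6A was 348, 347 and 277. miR-148b-3p was at 24.6, 32.3 and 37.0 RPM in m6A, 88.5-, 99.2- and 63.1-fold below input, with a log2 ratio of -6.34, the fifth lowest.

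The other arms did not share this depth of depletion. miR-148b-5p was at 61.5, 52.1 and 74.4 RPM in m6A, 4.68-, 6.55- and 3.98-fold below input (log2 ratio -2.30), and miR-152-5p was at 73.7, 93.9 and 178 RPM, or 0.525, 0.741 and 0.955 of input (log2 ratio -0.46), with overlapping groups. The remaining members lay on the opposite side. miR-148a-5p was at 1126, 933 and 999.95 RPM in m6A, 5.72, 3.88 and 3.72 times input, and miR-152-3p at 140.5, 179.8 and 455 RPM, 3.96, 2.76 and 12.9 times input, with log2 ratios of 2.12 and 2.37. At least 2-fold below input in every clone were 3 of the 6 arms, where 6.39% of all miRNAs tested were, and at least 2-fold above input were 2, where 50.3% of all were. The median log2 ratio was -1.38 over the 6 arms and 1.65 over all 2174 miRNAs. These counts follow from the choice of the family. Scaled by trimmed mean of M values (TMM), which moves the median of all miRNAs to 0.10, the ratios were -8.87 for miR-148a-3p, -7.90 for miR-148b-3p, -3.86 for miR-148b-5p, -2.01 for miR-152-5p, 0.58 for miR-148a-5p and 0.83 for miR-152-3p.

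**Figure D2:**
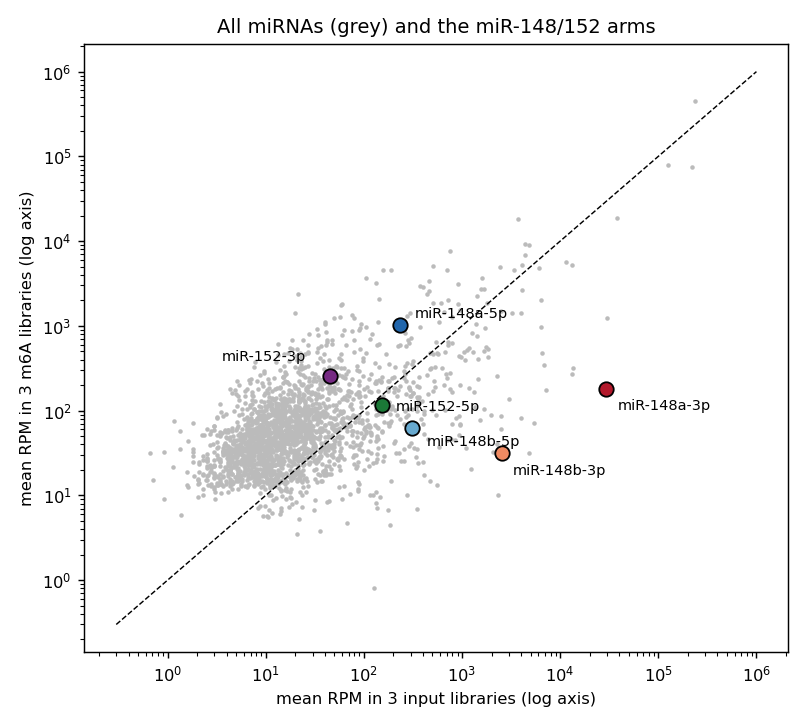
Mean RPM in the 3 m6A samples against mean RPM in the 3 input samples (log axes) for all miRNAs in grey and the 6 arms in colour, with the line of equal level. miR-148a-3p (29628 and 181 RPM) and miR-148b-3p (2572 and 31.3 RPM) lie far below the line, while miR-148a-5p (235 and 1019.6 RPM) and miR-152-3p (45.3 and 259 RPM) lie above it.

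The abundant arms were also scarce in the IgG control, precipitated without the anti-me6A antibody. In IgG samples miR-148a-3p was at 75.5, 114 and 156 RPM, from 56, 90 and 29 reads, and was 369-, 344- and 140-fold below input. miR-148b-3p was at 24.3, 26.7 and 48.3 RPM, from 18, 21 and 9 reads, and was 89.7-, 119.95- and 48.4-fold below input. miR-148b-5p, with only 5, 6 and 2 reads in IgG, was 42.6-, 44.7- and 27.6-fold below input. These 3 arms were at least 2-fold below input in IgG in every clone, as were 17.1% of all miRNAs. Over all 6 arms the median log2 ratio of IgG to input was -3.42, against 0.49 over 1941 miRNAs. With totals that leave out miR-6080, the IgG to input log2 ratio went from -8.06 to -6.91 for miR-148a-3p, from -6.38 to -5.24 for miR-148b-3p, from -5.29 to -4.14 for miR-148b-5p and from -1.55 to -0.42 for miR-152-3p. On the same totals the m6A to input log2 ratio was -6.87 for miR-148a-3p and -5.88 for miR-148b-3p. The IgG and m6A ratios share the input samples, so within a clone they differ by the m6A to IgG ratio, which is given below. miR-152-3p was at 0.304, 0.215 and 0.759 of input, miR-152-5p at 0.950, 0.341 and 0.316, and miR-148a-5p at 0.370, 0.180 and 2.50. For miR-148a-5p the FTO3C3 clone thus stood apart, with 670.4 RPM in IgG from 125 reads against 72.8 and 43.2 RPM in the other clones.

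**Figure D3:**
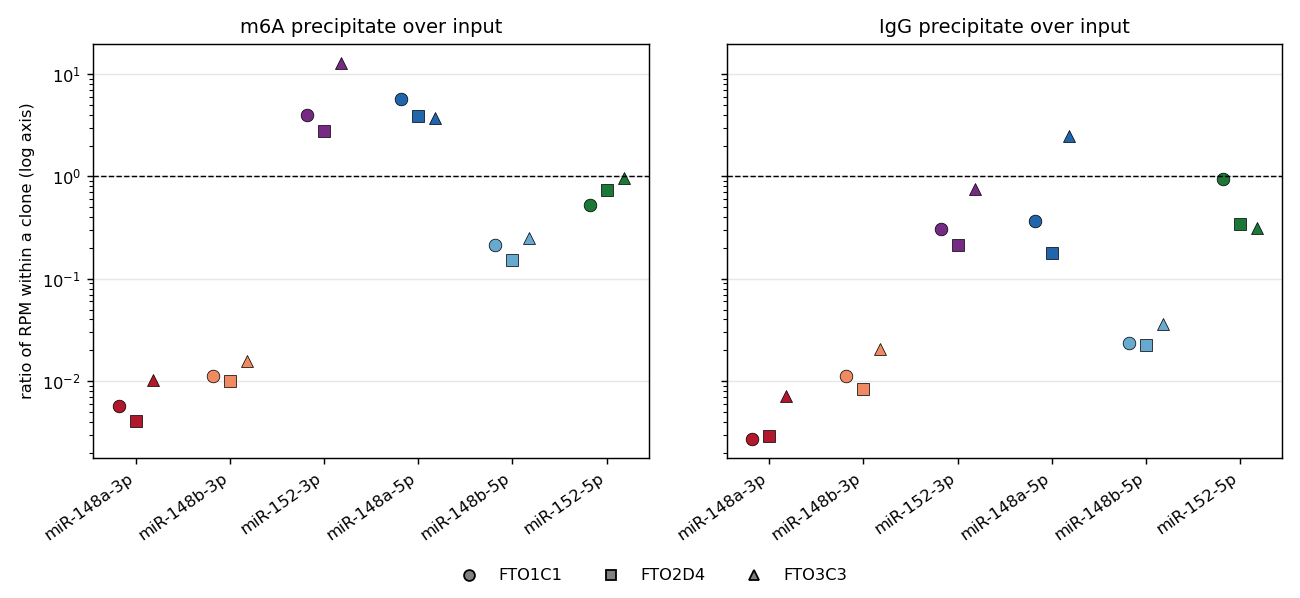
Ratio of RPM in m6A to input and in IgG to input within each clone (log axis) for the 6 arms, with a dashed line at equal level. miR-148a-3p lies 97.3- to 246-fold below input in m6A and 140- to 369-fold below in IgG, while miR-148a-5p and miR-152-3p lie above input in m6A in all 3 clones.

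Whether an arm was recovered by the anti-me6A antibody beyond background was read from m6A against IgG within each clone. The m6A samples of this comparison also entered the choice of the family, through miR-148a-3p and miR-148b-3p. By the quasi-likelihood F test of edgeR, Benjamini-Hochberg adjusted over 2054 miRNAs, 3 of the 6 arms were higher in m6A than in IgG, where 38.6% of all miRNAs were. Lower were 0 arms, where 1.27% of all were, and also 0 at an unadjusted edgeR p under 0.05 (3.51% of all), with TMM scaling (14.7%) and by DESeq2 (11.9%). The 3 higher arms were miR-152-3p, miR-148b-5p and miR-148a-5p. Both arms that dominate the cells were outside the threshold, but their low m6A levels were part of the choice, so this split is a description.

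miR-152-3p was at 10.8, 14.0 and 26.8 RPM in IgG, from 8, 11 and 5 reads, and its m6A level was 13.02, 12.86 and 16.98 times higher. Its log2 fold change was 3.80 (SE 0.36, edgeR's Benjamini-Hochberg adjusted p = 5.83e-05). miR-148b-5p was at 6.74, 7.63 and 10.7 RPM in IgG and 9.11, 6.83 and 6.94 times higher in m6A, a log2 fold change of 2.92 (SE 0.42, edgeR's Benjamini-Hochberg adjusted p = 0.000706). Both arms were above IgG by a similar factor in every clone, although miR-148b-5p was at the same time below input.

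miR-148a-5p was 15.5, 21.6 and 1.49 times higher in m6A, and the low ratio of FTO3C3 came with the high IgG level of that clone. Its log2 fold change was 3.04 (SE 0.72, edgeR's Benjamini-Hochberg adjusted p = 0.00956). This call was lost without FTO2D4 (2.22, edgeR's Benjamini-Hochberg adjusted p = 0.152) and without the clone as a block (2.05, edgeR's Benjamini-Hochberg adjusted p = 0.0545). Without FTO3C3, the clone with the high IgG level, the log2 fold change was 4.18 (edgeR's Benjamini-Hochberg adjusted p = 0.00153).

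The arms that were most abundant in the cells, whose low m6A levels were part of the choice, differed little between the precipitates. miR-148a-3p was 2.12, 1.40 and 1.43 times higher in m6A than in IgG, and although no m6A sample overlapped an IgG sample, its log2 fold change of 0.69 (SE 0.31) missed the threshold (edgeR's Benjamini-Hochberg adjusted p = 0.108). Its direction turned under TMM scaling, to -0.055, and under DESeq2, to -0.10. miR-148b-3p had ratios of 1.01, 1.21 and 0.766 and a log2 fold change of -0.01 (SE 0.38, edgeR's Benjamini-Hochberg adjusted p = 0.985). miR-152-5p had ratios of 0.552, 2.17 and 3.02 and a log2 fold change of 0.58 (SE 0.49, edgeR's Benjamini-Hochberg adjusted p = 0.382). Without FTO1C1, the clone below 1, it was 1.33 (edgeR's Benjamini-Hochberg adjusted p = 0.0286), and under TMM scaling it was -0.18. Groups did not overlap, with m6A higher, for miR-148a-3p, miR-148a-5p, miR-148b-5p and miR-152-3p, 4 of 6 arms, where 45.8% of all miRNAs met that description. The median log2 fold change was 1.80 over the 6 arms and 0.83 over all, and TMM scaling moved the latter to 0.06.

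The fold over IgG depends on the scaling also for the arms that passed. With TMM scaling, DESeq2 and totals without miR-6080 the log2 fold change was 3.04, 3.01 and 3.10 for miR-152-3p, 2.15, 2.12 and 2.20 for miR-148b-5p and 2.27, 2.28 and 2.34 for miR-148a-5p, all still past the threshold.

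The criterion that the study used for a methylated miRNA, at least 100 RPM in m6A and at least a 2-fold excess over IgG, was met by miR-148a-5p and miR-152-3p. The share of all miRNAs that met it was not counted here, so whether the family met it more often than others was not tested. miR-148a-3p passed the level in all 3 m6A samples but its mean ratio was 1.65 ± 0.404. miR-148b-5p passed the ratio (7.63 ± 1.29) but stayed under the level in every sample, and miR-148b-3p passed neither. miR-152-5p reached the level in 1 sample, with a mean ratio of 1.92 ± 1.25.

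**Figure D4:**
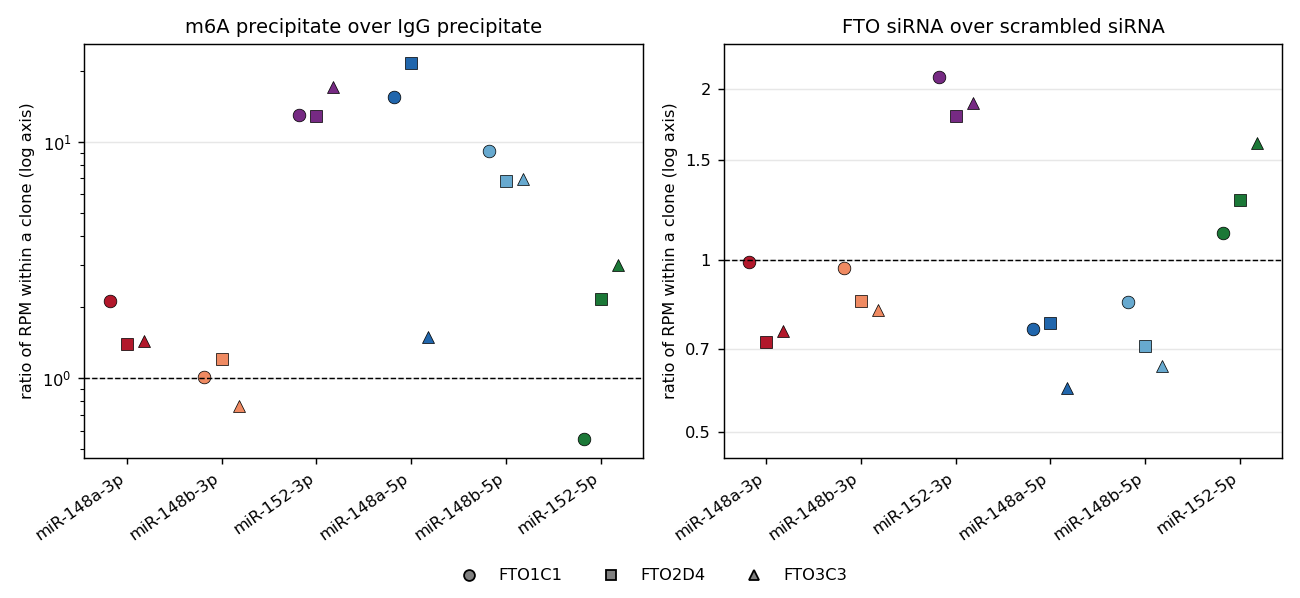
Ratio of RPM within each clone (log axes) for the 6 arms, m6A to IgG on the left and FTO siRNA to scrambled siRNA on the right, with a dashed line at equal level. miR-152-3p lies 12.86 to 16.98 times above IgG and 1.79 to 2.10 times above scrambled siRNA, whereas miR-148a-3p lies 1.40 to 2.12 times above IgG and at 0.718 to 0.994 of scrambled siRNA.

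Within a hairpin, the arms separated in opposite directions for miR-148a and miR-152, and because both arms come from the same library this ratio does not depend on library size. In input there were 142, 163 and 80.8 reads of miR-148a-3p for each read of miR-148a-5p, and 106, 131 and 99.4 with scrambled siRNA. In m6A the ratio was 0.142, 0.171 and 0.223, so that the passenger strand outnumbered the guide 7.04-, 5.83- and 4.48-fold. In IgG it was 1.04, 2.65 and 0.232, which spans both sides of equality.

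For miR-148b the ratio went from 7.57, 9.39 and 7.89 in input to 0.400, 0.620 and 0.497 in m6A, and was 3.60, 3.50 and 4.50 in IgG. The IgG ratio of this hairpin lay between input and m6A in every clone. For miR-152 it went the other way, from 0.253, 0.514 and 0.189 in input to 1.90, 1.91 and 2.56 in m6A, with 0.0808, 0.324 and 0.455 in IgG. From input to m6A the log2 ratio of 3p to 5p reads moved by -9.45 ± 0.83 for miR-148a, -4.05 ± 0.17 for miR-148b and 2.86 ± 0.93 for miR-152. From input to IgG it moved by -7.16 ± 1.25, -1.10 ± 0.31 and -0.35 ± 1.48 for the same hairpins in that order. From IgG to m6A the shifts were -2.29 ± 2.01, -2.95 ± 0.39 and 3.21 ± 1.17, with -0.06 for miR-148a in FTO3C3. The m6A to input shifts rest on the ratios that chose the family, and the m6A samples also enter the IgG to m6A shifts. Shifts from input have no test.

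**Figure D5:**
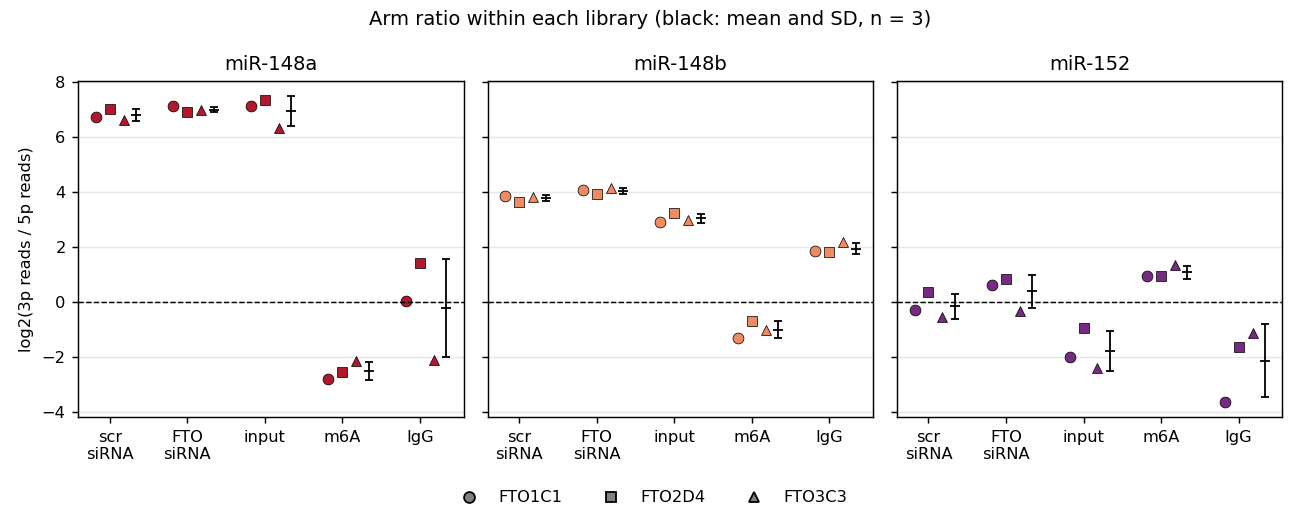
Log2 ratio of 3p to 5p reads within each library for the 3 hairpins in the 5 groups, points for clones and black bars for mean and SD (n = 3). miR-148a goes from 6.95 ± 0.54 in input to -2.51 ± 0.33 in m6A and miR-148b from 3.04 ± 0.16 to -1.01 ± 0.32, whereas miR-152 goes from -1.78 ± 0.74 to 1.07 ± 0.24. In IgG the 3 hairpins lie at -0.22 ± 1.77, 1.94 ± 0.20 and -2.13 ± 1.32.

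The effect of lowering FTO was read from FTO siRNA against scrambled siRNA within each clone, in samples that played no part in the choice by m6A to input. miR-152-3p rose, no arm passed the test downward, and the 4 arms of miR-148a and miR-148b lay below scrambled siRNA in all 3 clones. Values below scrambled siRNA in every clone were seen in 5.18% of the 2374 miRNAs tested. By the same edgeR test with Benjamini-Hochberg adjustment 1 of the 6 arms was higher, where 4.97% of all miRNAs were, and 0 were lower, where 0.505% of all were. At an unadjusted edgeR p under 0.05, 3 arms were lower, where 2.23% of all were. DESeq2 called 3 arms lower, with 7.46% of the 777 miRNAs it gave an adjusted p, and edgeR with TMM scaling called 2, with 1.43% of all. Over all miRNAs the median log2 fold change was 0.29, and over the 6 arms it was -0.24.

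miR-152-3p went from 61.8, 75.5 and 56.7 RPM with scrambled siRNA to 129.9, 135 and 107 RPM with FTO siRNA, that is from 225, 186 and 113 reads to 452, 469 and 416. Every FTO siRNA sample was above every scrambled siRNA sample, with ratios of 2.10, 1.79 and 1.89. The log2 fold change was 0.94 (SE 0.18, edgeR's Benjamini-Hochberg adjusted p = 0.0183), or 0.65 above the median of all miRNAs. The call was lost under TMM scaling (0.65, edgeR's Benjamini-Hochberg adjusted p = 0.0776), without the clone as a block (0.94, edgeR's Benjamini-Hochberg adjusted p = 0.0567) and without FTO1C1 (0.88, edgeR's Benjamini-Hochberg adjusted p = 0.231). It was kept by DESeq2 (0.65, DESeq2's Benjamini-Hochberg adjusted p = 0.0461). edgeR also kept it without the filter on low counts, without FTO2D4 and without FTO3C3 (Benjamini-Hochberg adjusted p = 0.0170, 0.0182 and 0.0203). Without FTO1C1 edgeR called no miRNA of the table.

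miR-148a-3p went from 40052, 47468 and 40641 RPM to 39818, 34080 and 30584 RPM, or 0.994, 0.718 and 0.753 of scrambled siRNA. The groups did not overlap, but FTO1C1 was nearly level. Its log2 fold change was -0.30 (SE 0.13, edgeR's Benjamini-Hochberg adjusted p = 0.189), or -0.59 relative to the median. DESeq2, which scales to the typical miRNA, gave -0.59 with a Benjamini-Hochberg adjusted p of 0.0235. miR-148b-3p went to 3834, 3042 and 3275 RPM, 0.972, 0.850 and 0.819 of scrambled siRNA, with overlapping groups and a log2 fold change of -0.19 (SE 0.13, edgeR's Benjamini-Hochberg adjusted p = 0.387).

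The 5p arms of the same hairpins also lay below scrambled siRNA. miR-148a-5p went from 379, 362 and 409 RPM to 288, 282 and 244 RPM, 0.758, 0.778 and 0.597 of scrambled siRNA, with no overlap. Its log2 fold change was -0.50 (SE 0.16, edgeR's Benjamini-Hochberg adjusted p = 0.0841), or -0.79 relative to the median, and it passed with TMM scaling (-0.79, edgeR's Benjamini-Hochberg adjusted p = 0.0207).

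miR-148b-5p went from 273, 285 and 284 RPM to 230.5, 201 and 185 RPM, 0.845, 0.706 and 0.652 of scrambled siRNA, again with no overlap. Its log2 fold change was -0.45 (SE 0.16, edgeR's Benjamini-Hochberg adjusted p = 0.113), and it too passed with TMM scaling (-0.74, edgeR's Benjamini-Hochberg adjusted p = 0.0288). miR-152-5p lay above scrambled siRNA, at 85.3, 75.1 and 133 RPM against 76.4, 58.9 and 82.9 RPM, with overlapping groups and a log2 fold change of 0.40 (SE 0.19, edgeR's Benjamini-Hochberg adjusted p = 0.211). Groups were separated downward for 3 arms, miR-148a-3p, miR-148a-5p and miR-148b-5p, and 1.94% of all miRNAs were so, and upward for miR-152-3p, as 26.7% of all were.

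The 3p arms, with their common seed, were compared within clones. The log2 response of miR-152-3p exceeded that of miR-148a-3p by 1.08, 1.32 and 1.33 (mean 1.24 ± 0.14) and that of miR-148b-3p by 1.11, 1.08 and 1.21 (mean 1.13 ± 0.07). Each had p = 0.25 by an exact two-sided sign-flip permutation test, the smallest that 3 clones allow, and 0.438 after Benjamini-Hochberg adjustment over the 7 pairs of arms compared. miR-148b-3p and miR-148a-3p differed by 0.11 ± 0.14 (exact permutation p = 0.5). The 3p to 5p log2 ratio of a hairpin moved from scrambled to FTO siRNA by 0.20 ± 0.28 for miR-148a, 0.27 ± 0.06 for miR-148b and 0.55 ± 0.34 for miR-152.

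For m6A against IgG the same 7 pairs were compared. miR-152-3p exceeded miR-148a-3p by 3.13 ± 0.48 and miR-148b-3p by 3.85 ± 0.55 on the log2 scale, in every clone. The exact permutation p of each was again the smallest possible, 0.25 (0.292 adjusted). The low m6A levels of miR-148a-3p and miR-148b-3p were part of the choice of the family, so these differences are a description only. miR-148b-5p and miR-148a-5p differed by -0.07 ± 2.03 (exact permutation p = 1), the clones giving -0.76, -1.66 and 2.22.

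The near identity of the 3p arms bears on how their reads were counted. A full-length miR-148a-3p read holds 20 bases in exact matches to miR-148b-3p and 17 to miR-152-3p, and miR-152-3p shares 18 with miR-148b-3p. The stated minimum was 17 covered bases in matches of at least 7, so such a read qualified for all 3 entries and went to the one with most matching bases. In input the 50, 95 and 53 reads of miR-152-3p stood beside 39272, 57370 and 32563 of miR-148a-3p. In m6A, miR-152-3p had 80, 245 and 2265 reads where miR-148a-3p had 91, 218 and 1109, so its reads there were about as many or more. How many reads of one arm were counted under another was not tested.

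Of all miRNAs with at least 15 RPM on average in both tables, 1233 in number, miR-148b-3p had the profile most like miR-148a-3p over the 15 samples, with a Pearson r of 0.997 on log2(RPM + 1). Outside the family the 5 closest were miR-196b-5p (r = 0.996), miR-27b-3p (0.994), miR-4443 (0.992), miR-301a-3p (0.991) and miR-1180-3p (0.990). Their mean m6A to input ratios were 0.0183, 0.0137, 0.00671, 0.0177 and 0.0855, against 0.00669 for miR-148a-3p. The other arms stood apart from this profile, with r of 0.904 for miR-148b-5p, 0.148 for miR-152-5p, 0.145 for miR-152-3p and -0.06 for miR-148a-5p. These are descriptions over samples that share clones and antibodies. miR-148a-3p was far lower in m6A and IgG than in the other samples, so low m6A to input ratios follow from likeness to it. The fall of miR-148a-3p and miR-148b-3p in m6A was also part of the choice of the family. Among the 20 most abundant miRNAs of input, where miR-148a-3p was the 6th, 10 were at least 2-fold lower in m6A in all clones and 3 at least 50-fold lower, miR-148a-3p, miR-27b-3p and miR-4443.

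Other miRNAs known to act on transcripts of DNA methyltransferases, not only DNMT1, or on those of the LDL receptor or ABCA1 were followed as lists. Of 6 regulators of DNA methyltransferase transcripts, miR-29a-3p, miR-29b-3p, miR-29c-3p, miR-185-5p, miR-342-3p and miR-143-3p, 0 rose and 0 fell with FTO siRNA, against 4.97% and 0.505% of all miRNAs, with a median log2 fold change of -0.11 against 0.29 over all. The most abundant with scrambled siRNA, miR-29c-3p, was at 189 ± 34.6 RPM there and 167 ± 19.5 RPM with FTO siRNA. In m6A against IgG 0 of the 4 that could be tested passed in either direction, against 38.6% higher and 1.27% lower over all, with a median of 0.09 against 0.83 over all. With FTO siRNA the count was also 0 in both directions at an unadjusted edgeR p under 0.05, with TMM scaling and by DESeq2. Of all miRNAs 2.23%, 1.43% and 7.46% were lower by these. In m6A against IgG 1 was higher at an unadjusted edgeR p under 0.05, a share not counted over all miRNAs. TMM scaling and DESeq2 each called 1 lower, where 14.7% and 11.9% of all were.

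Of 6 regulators of LDL receptor or ABCA1 transcripts, miR-33a-5p, miR-33b-5p, miR-128-3p, miR-130b-3p, miR-301b (listed without an arm) and miR-144-3p, 1 rose and 0 fell with FTO siRNA (4.97% and 0.505% of all), with a median log2 fold change of -0.11 (0.29 over all). miR-144-3p, otherwise known from red blood cells, stood at 21.0 ± 6.36 RPM with scrambled siRNA and 39.7 ± 3.15 RPM with FTO siRNA (log2 fold change 0.94, SE 0.20, edgeR's Benjamini-Hochberg adjusted p = 0.0323). In m6A against IgG 4 were higher, 1 did not pass and 1 could not be tested, where 38.6% of all were higher, with a median of 1.77 against 0.83 over all. At an unadjusted edgeR p under 0.05, 2 were higher and 1 lower with FTO siRNA, and 4 higher and 0 lower in m6A. Of all miRNAs 2.23% and 3.51% were lower at that p, and the share higher was not counted. TMM scaling and DESeq2 each called 2 higher in m6A, where over all miRNAs they called 453 of 2054 and 364 of 2104. With FTO siRNA TMM scaling called 0, where it called 21 of 2374 higher and 34 lower over all. DESeq2 called 0 higher and 1 lower, where it called 33 higher and 58 lower among 777. The rise of miR-144-3p thus rests on the scaling. The 4 higher over IgG were miR-130b-3p, the most abundant of the list (762.6 ± 307 against 23.6 ± 8.63 RPM), miR-144-3p (83.7 ± 16.99 against 10.4 ± 7.55), miR-128-3p (137 ± 27.7 against 66.9 ± 44.3) and miR-301b (20.6 ± 8.08 against 5.26 ± 1.16). miR-130b-3p had a log2 fold change of 4.88 (SE 0.36, edgeR's Benjamini-Hochberg adjusted p = 1.29e-05). Relative to input, the m6A log2 ratios were -0.92 for miR-130b-3p, 1.28 for miR-144-3p, -1.35 for miR-128-3p and -5.79 for miR-301b. The IgG log2 ratios to input were -5.94, -1.76, -2.57 and -8.00 in that order.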

How the data were processed

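The authors prepared TruSeq small RNA libraries, trimmed adapters with cutadapt and kept reads of 16 to 28 bases, which they assigned to miRBase mature sequences by maximal exact matches with no genome alignment, an ambiguous read going to the entry with most matching bases. The deposited values are raw read counts per mature miRNA, without molecular identifiers, so duplicates of PCR are included and precision is limited by counts in the precipitates. All 15 value columns were mapped to samples by name. Groups come from the labels, and the same clone links samples of different groups. No spike-in was used here, so values are relative.

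Counts were divided by the total miRNA reads of each sample to give RPM, and miRNAs passing filterByExpr (minimum count 10) were tested with edgeR 4.0.16 (R 4.3.3) by quasi-likelihood with the clone as a block and Benjamini-Hochberg adjustment over all miRNAs tested, at a threshold of 0.05. SE is the log2 fold change divided by the root of its F statistic. Comparisons were FTO siRNA against scrambled siRNA and m6A against IgG, while ratios to input are descriptions. Differences between arms used exact sign-flip permutation tests over 3 clones. Alternatives were TMM scaling, DESeq2 1.42.0, no filter, no block, totals without miR-6080 and leaving out each clone. The fits were tested on simulated data. Each table was analysed separately, and p-values measure spread over clones, each with 1 library per group. Samples of a group differed beyond sampling noise (chi-square per degree of freedom 6.11 to 145), so none was counted as a repeat. Same-clone deviations correlated at 0.121 to 0.189 in the knockdown table and at 0.0117 to 0.0370 for m6A against IgG; the pairing comes from the shared clone. Named were all arms of the family, the 5 miRNAs most correlated with miR-148a-3p, a miRNA with the seed of a member, and of 2 lists those that passed or were most abundant. Members and lists were chosen with earlier results of these data known. Sequences are from RefSeq (GRCh38.p14).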

Additional observations from a re-analysis of the deposited data

How the results depend on the processing

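Over 267 alternative values for the arms, arm ratios and counts, 219 kept their direction and call or moved by less than the spread, 27 moved, 10 reversed, 6 passed the threshold newly and 5 no longer passed it. With FTO siRNA, DESeq2 gave -0.59 for miR-148a-3p, -0.80 for miR-148a-5p and -0.75 for miR-148b-5p, and TMM scaling -0.79 and -0.74 for the latter pair, all past the threshold, so that DESeq2 called 3 arms lower and TMM scaling 2. These scalings centre the median of all miRNAs, 0.29 by total reads. miR-152-3p missed the threshold under TMM scaling (0.65) and without the replicate block (0.94, edgeR's Benjamini-Hochberg adjusted p = 0.0567), which left 0 arms called higher in each. DESeq2 kept the call of miR-152-3p (0.65, DESeq2's Benjamini-Hochberg adjusted p = 0.0461). Leaving out clones gave 0.88 to 1.00 and 0 to 1 arms called higher.

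For m6A against IgG, miR-148a-3p reversed with TMM scaling (-0.055) and DESeq2 (-0.10), and miR-152-5p with TMM scaling (-0.18), DESeq2 (-0.20) and totals without miR-6080 (-0.12). miR-148b-3p reversed without the replicate block (0.093). miR-148a-5p missed the threshold without the replicate block (2.05). Leaving out clones gave 2.22 to 4.18 for miR-148a-5p, -0.19 to 0.16 for miR-148b-3p and 0.12 to 1.33 for miR-152-5p. miR-152-3p and miR-148b-5p stayed past the threshold under every alternative run. The replicate block changed no other call of an arm in these comparisons. In IgG against input miR-148a-5p reversed without the replicate block (0.052) and without miR-6080 (0.26), and miR-152-5p without miR-6080 (0.11). The causes of these changes were not tested. Depth limits the IgG values most, with 2 to 6 reads of miR-148b-5p and 5 to 11 of miR-152-3p.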
